A study of Homo sapiens with 6 samples.

Results

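The cytosolic ribosomal protein genes encode the protein parts of the ribosome that works outside mitochondria. They were taken by symbol from the annotation of the array: RPL followed by a number, with or without A, L or X and a last digit, RPS followed by a number, with or without A or X, and RPSA, RPLP0, RPLP1 and RPLP2. The RPS6K kinases and the pseudogenes were left out, and RPL36AL and RPS27L did not match the rule. The rule found 83 of the 34423 gene names on the array, on 183 probes, and all 83 were among the 22718 genes that passed the filter on dim probes (181 of their 183 probes passed). There were 52 genes of the large subunit and 31 of the small subunit, counting the paralogs RPL3L, RPL7L1, RPL10L, RPL22L1, RPL26L1 and RPL39L. None of their spots was saturated.

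The tumors were subcutaneous xenografts of BxPC-3, an established human pancreatic cancer cell line, in female BALB/c (nu/nu) mice, which lack T cells, aged 8 to 10 weeks at the start. Treatment began at a tumor volume of 150 mm3. DFX (deferasirox), an oral iron chelator, was given by gavage in saline at 200 mg/kg, 3 times a week for 21 days, to the DFX group, and the control group received the vehicle for the same time. Total RNA of 3 DFX and 3 control tumors was hybridised to 1 single-colour Agilent array each, and the comparison asks how DFX altered gene expression in the tumors. Only 1 line was used, each tumor also holds mouse cells, and fewer cells of a type cannot be told apart from less RNA per cell.

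The ribosome reads mRNA on its small subunit and joins amino acids on its large subunit. Its proteins are made in near equal numbers from a set of very abundant mRNAs. Most of these mRNAs begin with a cytosine followed by a run of pyrimidines, the 5′ terminal oligopyrimidine (TOP) tract, through which mTORC1 and LARP1 control their translation, so that ribosomal protein output can change with little change in mRNA. Iron enters at several points: the oxygenases OGFOD1, RIOX1 and RIOX2 hydroxylate ribosomal proteins, and ABCE1, an iron-sulfur protein, splits ribosomes for reuse.

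The TOP tract was looked for at the transcription starts that RefSeq lists for these genes on GRCh38.p14, since it is the feature that most members share. Of 82 starts, belonging to 66 of the 83 genes, 47 (57.3%) had the motif, a C followed by at least 4 letters C or T on the transcribed strand, exactly at the start. The same held for 4.07% of all 35116 starts in the table. When the motif could begin up to 5 bases to either side, 58 of the 82 starts (70.7%) held it, against 21.1% of all starts. The windows below run from 15 bases before the start to the 15th base of the transcript, with the pyrimidine run from the start in capitals. The first genes are those whose values are described below, and RPL10L, an intronless paralog of RPL10, is shown as a start without the motif.
RPS3, chr11:75399503-75399532, plus strand: gcccgcgagccacttCCTTTCCTTTCagcg
RPL14, chr3:40457324-40457353, plus strand: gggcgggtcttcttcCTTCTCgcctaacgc
RPS6, chr9:19380222-19380251, minus strand: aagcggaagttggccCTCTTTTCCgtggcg
RPSA, chr3:39406705-39406734, plus strand: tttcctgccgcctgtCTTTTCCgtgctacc
RPLP0, chr12:120201097-120201126, minus strand: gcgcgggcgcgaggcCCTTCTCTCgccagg
RPL13A, chr19:49487593-49487622, plus strand: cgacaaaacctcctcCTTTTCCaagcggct
RPL10L, chr14:46651767-46651796, minus strand: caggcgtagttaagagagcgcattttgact

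The genes with and without the motif exactly at a listed start had similar ranges of change. Some genes of the second set, such as RPL19 and RPL10A, have the motif within 5 bases of a start. That set is therefore not free of the tract. The 47 genes with the motif at a start had a median log2 fold change (DFX minus control) of -0.02, from -0.30 to 0.25, and the 19 genes whose listed starts lacked it had a median of -0.05, from -0.34 to 0.25. No test was made of this difference, and arrays measure mRNA and not its translation.

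The mRNAs of the ribosomal proteins changed little in the DFX-treated tumors. A gene was read by its brightest tested probe, and all levels are quantile-normalised log2 intensities. The median log2 fold change was -0.02 over the 83 genes and -0.01 over all 22718 tested genes. The members' values ran from -0.34 to 0.25, with 48 genes below 0 and 35 above, and 52 (62.7%) were within 0.1 of 0, against 35.5% of all tested genes. The 95% confidence interval lay within 0.5 log2 units of 0 for 74 of the 83 genes. The median was -0.04 for the large and -0.01 for the small subunit.

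**Figure D1:**
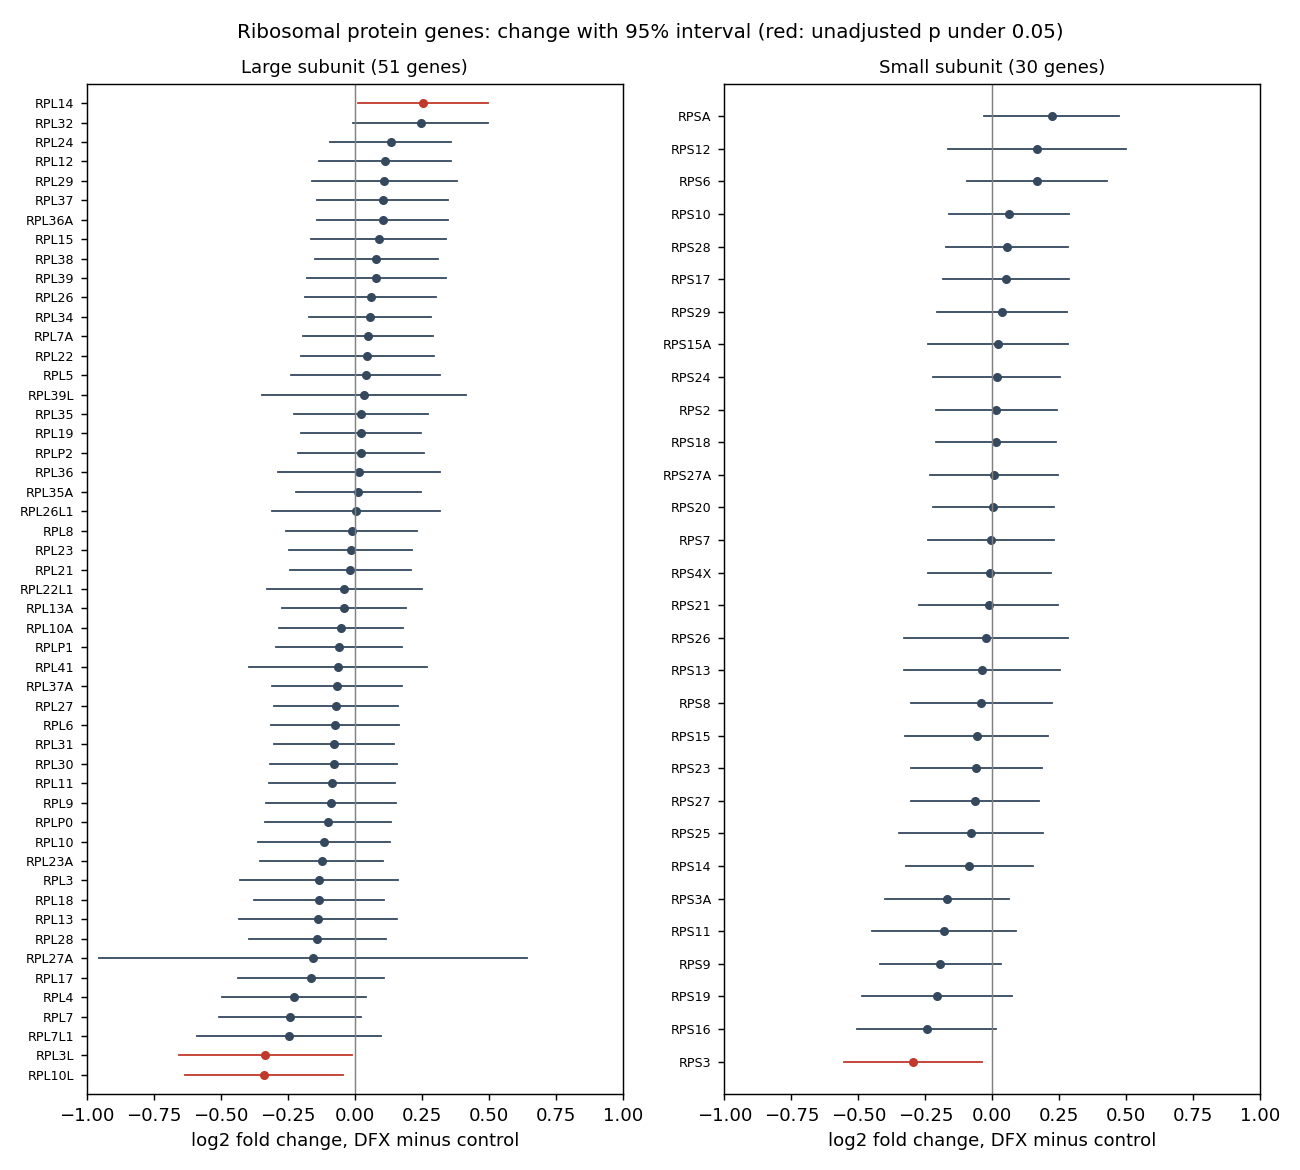
Log2 fold change (DFX minus control, x axis) of 81 of the 83 ribosomal protein genes with its 95% confidence interval from limma, ordered by size, with the large subunit on the left and the small subunit on the right. Nearly all intervals cross 0, and the 4 genes in red (RPL10L, RPL3L, RPS3 and RPL14) are those with an unadjusted p under 0.05.

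At an unadjusted p under 0.05 (limma, two-sided), 3 members were lower (3.61%) and 1 was higher (1.20%). Over all tested genes the shares were 4.29% lower and 3.68% higher (7.98% in either direction), so the members' share was no larger than that of genes at large. Scaling to the 75th percentile turned the split over all genes to 687 lower and 1086 higher, and median scaling to 1204 lower and 567 higher, from 975 and 837. No gene passed after Benjamini-Hochberg adjustment over all probes. The lowest adjusted p was 0.570 among the members, and 0.0675 over all probes.

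RPS3, a small-subunit protein at the mRNA entry channel, was lower with DFX. Its log2 levels were 14.78, 14.94 and 14.92 in control replicates 1 to 3, and 14.52, 14.67 and 14.56 in DFX replicates 1 to 3. Every DFX tumor was below every control tumor, and the log2 fold change was -0.30 ± 0.11 (SE, n = 3 per group; limma unadjusted p = 0.0310, adjusted p = 0.570), 18.5% lower on the linear scale. The probe lies at chr11:75111802-75111861 (hg19) on the plus strand of RPS3.

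RPL10L was lower by a similar amount. RPL10L is an intronless copy of RPL10 that is known from testis. Control replicates gave log2 levels of 15.45, 15.56 and 15.63, and DFX replicates 15.05, 15.32 and 15.25, again without overlap. The log2 fold change was -0.34 ± 0.12 (SE, n = 3 per group; limma unadjusted p = 0.0305, adjusted p = 0.570). Its probe (chr14:47120514-47120573, hg19, minus strand) overlaps one of the RPL10 probes (chrX:153628866-153628925, hg19, plus strand) over 36 bases with 3 mismatches, so signal from RPL10 mRNA on this probe cannot be set aside and the gene assignment is uncertain. The probes are shown with the mismatched bases of the overlap in capitals.
RPL10L probe: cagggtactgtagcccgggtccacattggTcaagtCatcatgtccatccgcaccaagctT
RPL10 probe: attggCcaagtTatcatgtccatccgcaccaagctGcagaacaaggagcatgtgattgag
The RPL10 probe shown had a log2 fold change of -0.20, and the brightest RPL10 probe one of -0.11 (95% confidence interval -0.36 to 0.13). It was the only overlap of 30 bases or more, with at most 10% mismatches, between probes of different members.

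RPL3L, the striated muscle paralog of RPL3, was the third gene below the threshold. Its log2 levels were 5.36, 5.51 and 5.11 in the controls and 5.02, 4.96 and 5.01 with DFX. The groups did not overlap, and the log2 fold change was -0.33 ± 0.13 (SE, n = 3 per group; limma unadjusted p = 0.0445, adjusted p = 0.585). The probe was well above background on all 6 arrays, but its mean log2 levels, 5.33 in the controls and 4.99 with DFX, were the lowest among the members. With a variance prior that follows intensity, described below, the limma unadjusted p of RPL3L was 0.133. RPL3 itself had a log2 fold change of -0.13 (95% confidence interval -0.43 to 0.16).

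RPL14, a large-subunit protein, was the one member that was higher. Control tumors gave log2 levels of 15.76, 15.91 and 15.84, and DFX tumors 16.07, 16.08 and 16.13. All DFX values were above the controls, with a log2 fold change of 0.25 ± 0.10 (SE, n = 3 per group; limma unadjusted p = 0.0422, adjusted p = 0.581). With each array scaled to its 75th percentile instead of quantiles, none of the 83 genes had a p under 0.05, and with median scaling RPS3 and RPL10L were among the 3 lower and none was higher. When control replicate 2 was left out none of the 4 calls held, nor did any when the first or the third DFX tumor was left out. Without control replicate 3, RPL3L alone held, and without control replicate 1 or DFX replicate 2, RPS3 and RPL10L held.

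**Figure D2:**
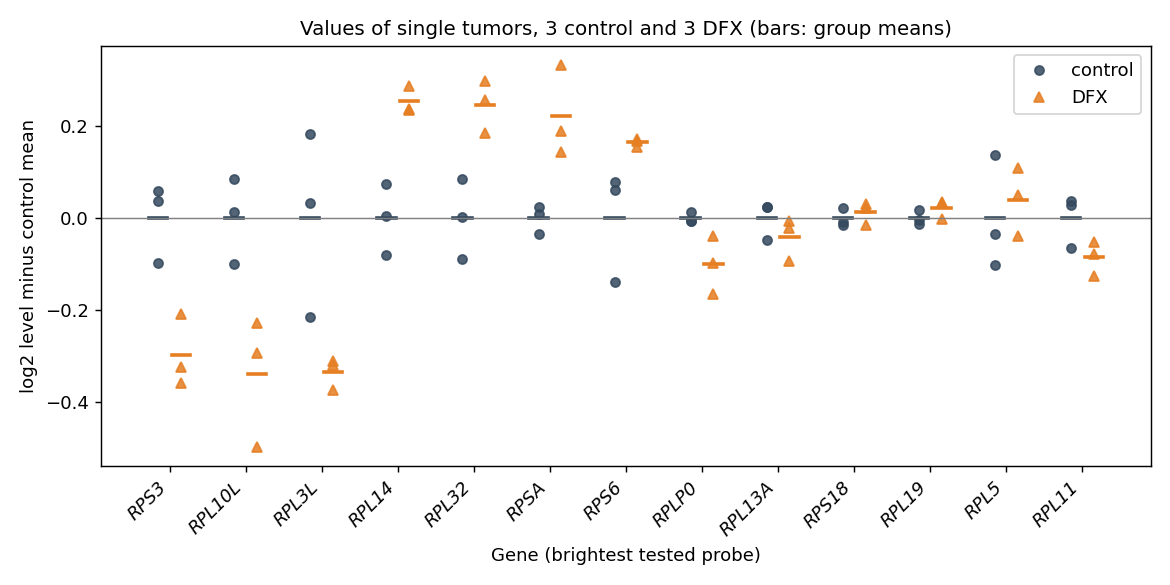
Log2 level of single tumors minus the control mean (y axis) for 13 named ribosomal protein genes (x axis), with control tumors as circles, DFX tumors as triangles and group means as bars. RPS3, RPL10L and RPL3L have all DFX tumors below the controls and RPL14, RPL32, RPSA and RPS6 all above, while RPS18, RPL19 and RPL5 overlap.

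The members varied little between tumors. The pooled within-group SD had a median of 0.0648 log2 units over the 83 genes, against 0.208 over all tested genes, which is 3.21 times as large. It was 0.174 over the tested genes well above background on all arrays, 0.103 over 32 elongation and initiation factors and other TOP mRNAs, and 0.0777 over the 5 ribosomal protein genes outside the rule. With scaling to the 75th percentile these medians were 0.0833 and 0.212, and with median scaling 0.137 and 0.227. The tumors of the groups were apart in more members than the limma test called. In 15 genes (18.1%) every DFX tumor was below every control tumor, and in 9 (10.8%) every DFX tumor was above. Over all tested genes the shares were 8.41% and 7.03%. limma with a variance prior that follows intensity, a setting chosen after the data were seen, called 10 of the 83 members lower and 3 higher, against 4.45% and 4.46% of all tested genes. Of these 13, 3 were also called without the trend, and none passed adjustment. The 10 lower members included RPS3 and RPL10L, and also RPS16, RPS9, RPS3A, RPS19, RPL4 and RPL7, with log2 fold changes between -0.24 and -0.17 for these 6. The 3 higher were RPL14, RPL32 and RPSA, and RPL3L was not called by this setting.

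**Figure D3:**
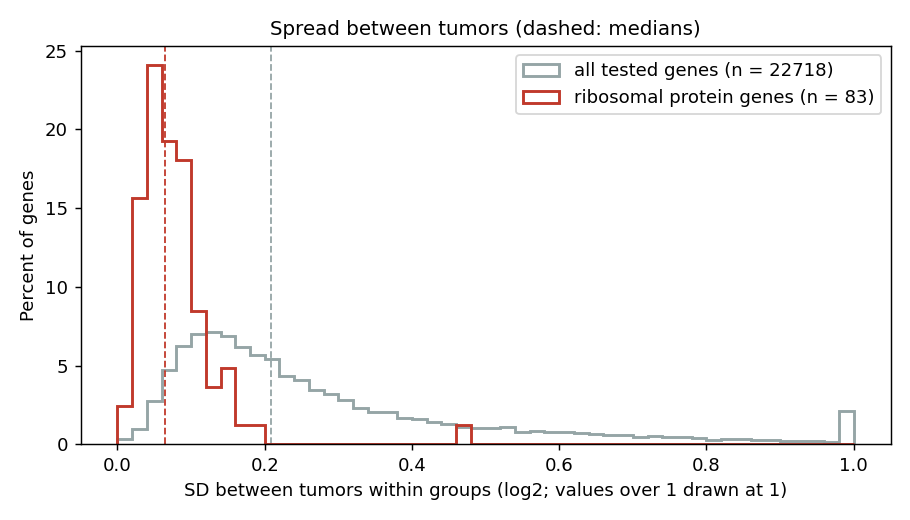
Distribution of the within-group SD between tumors (log2, x axis) as percent of genes (y axis), for the 83 ribosomal protein genes in red and all 22718 tested genes in grey, with dashed lines at the medians. The members gather near their median of 0.0648, well to the left of the median of 0.208 of all genes.

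Among the small-subunit genes in this group, RPS9, which lies at the mRNA entry channel with RPS3, had log2 levels of 15.44, 15.46 and 15.45 in the controls and 15.22, 15.29 and 15.26 with DFX. The groups were apart although the log2 fold change was -0.19 ± 0.09 (limma SE, n = 3 per group) with a limma unadjusted p of 0.0796. The pooled SD of RPS9 between tumors was only 0.0271, so its moderated SE is wider than its own tumors would give. RPS2, also at the entry channel, had a log2 fold change of 0.01 (95% confidence interval -0.21 to 0.24).

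Several members serve as reference genes for normalising expression. The values below are quantile-normalised, and the members' median SD was 0.0648 that way and 0.137 with median scaling. Their steadiness thus depends in part on the scaling, and the values do not test that use. RPS18 had log2 levels of 17.77, 17.81 and 17.78 in the controls and 17.81, 17.82 and 17.77 with DFX, a log2 fold change of 0.01 (95% confidence interval -0.21 to 0.24). RPL19 differed by 0.02 (-0.20 to 0.25) and RPL13A by -0.04 (-0.27 to 0.19). For RPLP0, of the P stalk that recruits elongation factors, the log2 levels were 17.97, 17.95 and 17.95 in the controls and 17.80, 17.92 and 17.86 with DFX. These groups did not overlap, with a log2 fold change of -0.10 (-0.33 to 0.13). The other tested RPLP0 probe, averaged over 10 spots, gave -0.19 (-0.44 to 0.05), also without overlap. RPL32 had log2 levels of 16.39, 16.56 and 16.48 in the controls and 16.66, 16.73 and 16.77 with DFX, all higher, with a log2 fold change of 0.25 (-0.01 to 0.50; limma unadjusted p = 0.0541). RPL32 and RPLP0 thus separated the groups in opposite directions, except that the mean of both RPL32 probes differed by -0.01, whereas RPS18 and RPL19 overlapped between the groups. The other P stalk genes, RPLP1 and RPLP2, had log2 fold changes of -0.06 and 0.02.

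RPL5 and RPL11, which join 5S rRNA in the particle that binds MDM2 when ribosome assembly is disturbed, had no change that passed the test. RPL11 had log2 levels of 17.13, 17.22 and 17.23 in the controls and 17.07, 17.14 and 17.12 with DFX, a log2 fold change of -0.08 (95% confidence interval -0.32 to 0.15). The brightest RPL5 probe gave 16.79, 16.86 and 17.03 in the controls and 16.86, 17.01 and 16.95 with DFX, a log2 fold change of 0.04 (-0.24 to 0.32). Its other probes, described below, gave -0.10, -0.22 and -0.30, each with an interval across 0. The one with -0.10 was about as bright, with mean log2 levels of 16.97 in the controls and 16.86 with DFX. None of the 20 members mutated in Diamond-Blackfan anemia was called, where 7.98% of all tested genes were, and their median log2 fold change was 0.01. None of the 9 proteins of the exit tunnel was called either, with a median of 0.02.

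RPS6, the substrate of the S6 kinases, had log2 levels of 16.86, 16.88 and 16.66 in the controls and 16.95, 16.97 and 16.96 with DFX. All DFX tumors were above the controls, with a log2 fold change of 0.17 ± 0.11 (SE, n = 3 per group; limma unadjusted p = 0.173). RPSA, which is also known as the laminin receptor, gave 16.52, 16.58 and 16.57 in the controls and 16.89, 16.70 and 16.75 with DFX, a log2 fold change of 0.22 ± 0.10 (SE, n = 3 per group; limma unadjusted p = 0.0744).

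Of the 6 paralogs, RPL10L and RPL3L were the called genes, where 7.98% of all tested genes were called, a difference that was not tested. RPL7L1, a nucleolar paralog of RPL7, had log2 levels of 10.17, 10.46 and 10.49 in the controls and 10.22, 10.20 and 9.96 with DFX, a log2 fold change of -0.25 (95% confidence interval -0.59 to 0.10). RPL22L1, RPL26L1 and RPL39L differed by -0.04, 0.00 and 0.04, each with an interval across 0.

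The substrates of the iron-dependent hydroxylases and the enzymes themselves had no difference that passed the test. RPS23, the substrate of OGFOD1, had a log2 fold change of -0.06 (95% confidence interval -0.31 to 0.19), and RPL8, the substrate of RIOX1, one of -0.01 (-0.26 to 0.23). For RPL27A, the substrate of RIOX2, the only probe gave low mean log2 levels, 6.22 in the controls and 6.06 with DFX. RPS23 and RPL8 had 15.96 and 17.20 in the controls. At this low level the RPL27A probe varied widely between tumors (pooled SD 0.472), and the interval ran from -0.95 to 0.64. OGFOD1 differed by -0.02 (-0.41 to 0.36), RIOX1 (C14orf169 on the array) by 0.10 (-0.31 to 0.50) and RIOX2 (MINA on the array) by -0.29 (-0.75 to 0.17). ABCE1 differed by -0.03 (-0.33 to 0.28).

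The log2 fold changes of many members differed by where in the transcript the probe lay, a pattern that was noticed in these data. For single members few of these differences passed the unadjusted test, and none passed adjustment. For 38 members with at least 2 tested probes of the same transcript, 60 bases or more apart on the genome, the most 5′ probe was set against the most 3′ probe. The log2 fold change was lower at the 5′ probe in 32 of the 38 (84.2%), with a median difference (5′ minus 3′) of -0.09. Over all 3675 such genes it was lower at the 5′ probe in 60.5%, with a median of -0.06, and over the 510 with both probes above a log2 level of 10 in 67.3%, with a median of -0.05. Of these, 432 had probes no farther apart than in the members, and there it was lower in 70.1%, with a median of -0.05. The members' difference was not tested against that of other genes.

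The difference was present in each DFX tumor. Relative to the control mean, the median difference over the 38 genes was -0.01, 0.00 and 0.03 in control replicates 1 to 3, and -0.10, -0.05 and -0.11 in DFX replicates 1 to 3. All DFX tumors were below all control tumors. Over all 3675 genes the medians were -0.04, 0.03 and 0.01 in the controls and -0.05, -0.03 and -0.09 with DFX, where DFX replicate 2 lay above control replicate 1. Leaving out each tumor in turn kept the members' median between -0.10 and -0.07.

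**Figure D4:**
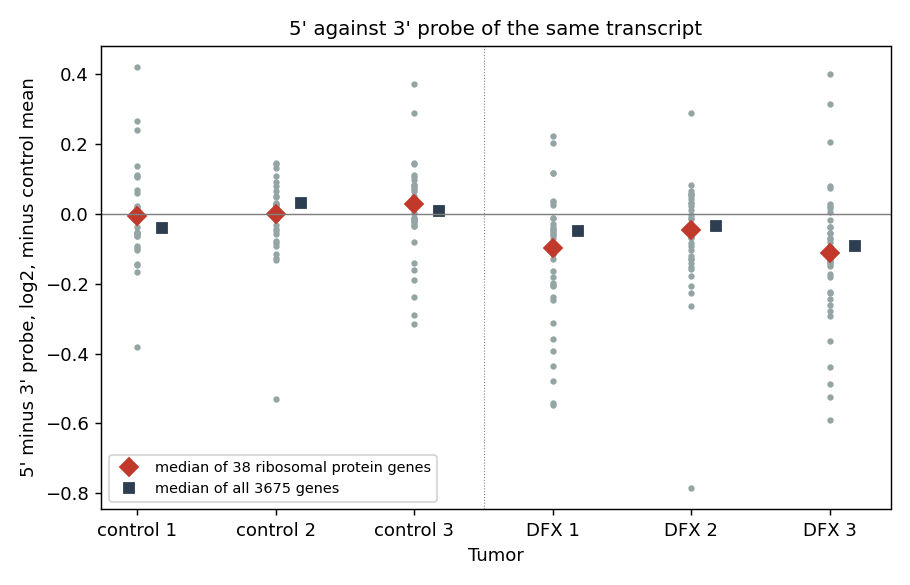
Difference between the most 5′ and the most 3′ probe of a transcript (log2, minus its mean in the controls, y axis) in each tumor (x axis), with 1 grey dot for each of 38 ribosomal protein genes, red diamonds for their median and dark squares for the median of all 3675 genes. The members' medians lie between -0.01 and 0.03 in the control tumors and between -0.11 and -0.05 in the DFX tumors.

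RPL32 had the widest difference, -0.50 ± 0.26 (SE, n = 3 per group; limma unadjusted p = 0.104), with tumors that overlapped. RPL5 had the next widest difference in this direction. It is shown with its 4 probes spread along the gene, in the order of the transcript from 5′ to 3′. They lie at chr1:93299130-93299189, chr1:93300402-93300460, chr1:93303074-93303132 and chr1:93307337-93307396 (hg19, plus strand).
RPL5 probe, most 5′: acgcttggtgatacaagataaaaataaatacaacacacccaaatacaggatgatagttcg
RPL5 probe, next: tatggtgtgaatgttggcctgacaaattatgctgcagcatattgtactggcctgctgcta
RPL5 probe, next: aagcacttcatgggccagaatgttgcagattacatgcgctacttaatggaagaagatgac
RPL5 probe, most 3′: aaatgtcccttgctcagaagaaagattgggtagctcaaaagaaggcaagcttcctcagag
In this order the log2 fold changes were -0.30, -0.22, -0.10 and 0.04, so that the sign turned along the gene. Not all members with as many probes of a transcript ran this way. From 5′ to 3′, RPL23A had -0.12, -0.15, -0.12 and -0.12, and RPS3A had -0.15, -0.18, -0.05, -0.17 and -0.12. RPL17, described below, ran as RPL5 did. The most 5′ probe had log2 levels of 13.24, 13.45 and 13.34 in the controls and 13.07, 13.25 and 12.80 with DFX. The difference between the end probes was -0.35 ± 0.15 (SE, n = 3 per group; limma over the 3675 genes, unadjusted p = 0.0586, adjusted p = 0.447).

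RPL13A ran the same way. Its 3 probes had log2 fold changes of -0.25, -0.15 and -0.04 from 5′ to 3′. The most 5′ one was the only member probe under the threshold that was not its gene's brightest (limma unadjusted p = 0.0443, adjusted p = 0.585). With it, 4 of the 181 tested probes were lower and 1 was higher, against 8.41% of all probes in either direction. It gave log2 levels of 16.03, 16.06 and 16.13 in the controls and 15.79, 15.89 and 15.81 with DFX, without overlap. The probe of RPS3, the only one for its gene, is shown because its gene had the lowest p in the small subunit.
RPS3 probe: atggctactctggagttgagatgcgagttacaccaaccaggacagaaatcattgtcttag

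For RPS10 the 3 upstream probes had log2 fold changes of -0.22, -0.26 and -0.20, and the 3′ probe one of 0.06. The difference between its end probes was -0.28 ± 0.10 (SE, n = 3 per group; limma unadjusted p = 0.0315, adjusted p = 0.437), the one member called lower by this measure, where 6.67% of the 3675 genes were. RPL17, from 5′ to 3′, had log2 fold changes of -0.23, -0.16, -0.08 and 0.05. RPSA had -0.10 at its most 5′ probe and 0.22 at its most 3′ probe. RPL22, an RNA-binding protein of the exit tunnel region, ran the other way, with 0.05 at the 5′ probe and -0.26 at the 3′ probe, a difference of 0.30 ± 0.11 (SE, n = 3 per group; limma unadjusted p = 0.0286, adjusted p = 0.427), the one member called higher (4.41% of all). The DFX and control tumors did not overlap in 11 of the 38 members (28.9%) in the lower direction and in 1 (2.63%) in the higher, against 12.9% and 7.18% of all 3675 genes and 20.6% and 9.80% of the 510 genes with both probes above a log2 level of 10, as in 35 of the 38 members.

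**Figure D5:**
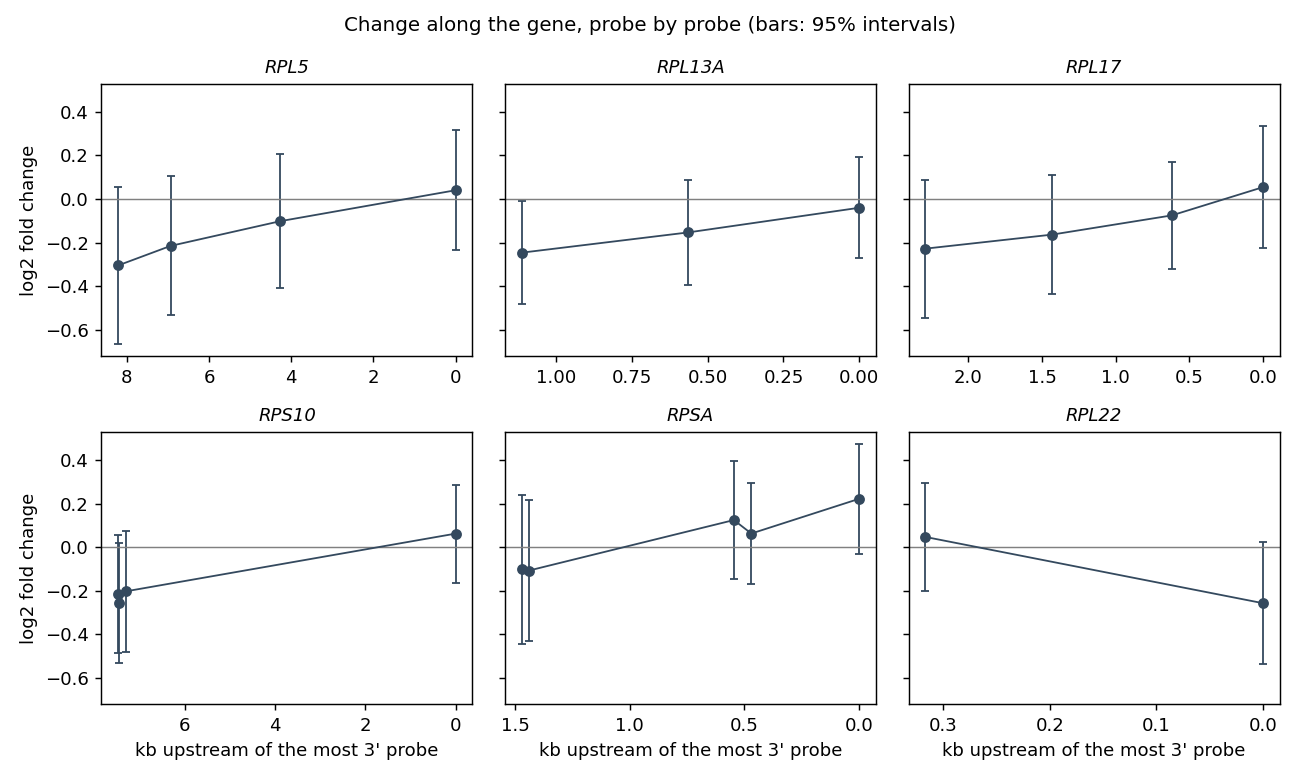
Log2 fold change of each probe (DFX minus control, y axis, with 95% confidence intervals) against its distance on the genome, introns included, from the most 3′ probe of the transcript (kb, x axis, 5′ to the left) for RPL5, RPL13A, RPL17, RPS10, RPSA and RPL22. In the first 5 genes the values are lower on the left than on the right, and in RPL22 the order is reversed. The first 5 are among the members with the widest differences between end probes, and RPL22 has the widest in the other direction.

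When the most 3′ tested probe stood for each gene in place of the brightest, the members' median log2 fold change was -0.01, and when all probes of a gene were averaged it was -0.05. Overlapping probes of the same gene also differed in places. The RPL31 probes that share 48 bases with 4 mismatches had log2 fold changes of 0.14 and -0.08.

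The other genes of the translation apparatus differed by list, with 62.5% of the ribosome biogenesis factors, 46.9% of the translation factors and 25% of the mTORC1 and 4E-BP genes within 0.1 of 0, against 35.5% of all tested genes. The 64 ribosome biogenesis factors had a median log2 fold change of -0.01. At the unadjusted threshold 1 of them was higher (1.56%, against 3.68% of all tested genes) and none was lower (against 4.29%). The gene was GNL3 (nucleostemin, a nucleolar GTP-binding protein), with log2 levels of 11.32, 11.48 and 11.37 in the controls and 11.81, 11.74 and 11.79 with DFX and a log2 fold change of 0.39 ± 0.10 (SE, n = 3 per group; limma unadjusted p = 0.00823, adjusted p = 0.514). Of 32 elongation and initiation factors and other TOP mRNAs, 4 were lower (12.5%, against 4.29% of all tested genes) and none was higher (against 3.68%), with 25 below 0 and a median of -0.10. The 4 were the initiation factor 3 subunits EIF3E, EIF3F and EIF3K, with log2 fold changes of -0.31, -0.48 and -0.30, and EEF1A1, which brings tRNA to the ribosome, with -0.29. The most 3′ probe of EEF1A1 gave 0.00.

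None of the 20 mTORC1 and 4E-BP genes was called, and LARP1, which binds the TOP tract, differed by 0.05 (95% confidence interval -0.21 to 0.31). Of the 5 ribosomal protein genes with other names, GNB2L1 (RACK1, a scaffold on the small subunit) was lower, with log2 levels of 14.58, 14.91 and 14.68 in the controls and 14.30, 14.55 and 14.19 with DFX and a log2 fold change of -0.37 ± 0.15 (SE, n = 3 per group; limma unadjusted p = 0.0446, adjusted p = 0.585). FAU and RPL36AL differed by 0.09 and 0.08, and RPS27L by -0.22. Of 76 mitochondrial ribosomal protein genes, which serve the separate ribosome of mitochondria, MRPS25 was higher (log2 fold change 0.54, limma unadjusted p = 0.00276, adjusted p = 0.513) and none was lower, with a median of -0.02. The share higher was 1.32%, where 3.68% of all tested genes were higher and 4.29% lower.

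Over the whole array, between 50.3% and 56.5% of probes were well above background. All 7 epithelial markers were well above background on every array, and 3 of the 7 (KRT8, KRT18 and EPCAM) were higher with DFX at the unadjusted threshold. Of the 7, 6 had a log2 fold change above 0 and 1 below. Over all tested genes 3.68% were higher and 4.29% lower at that threshold. Of the 3 tested endocrine markers 1 was well above background on every array, as was 1 of the 2 tested acinar markers. SST, another endocrine marker, was so on no array. The median deviation of the 7 markers from the control mean was 0.09, 0.05 and -0.07 in the controls and 0.32, 0.28 and 0.22 with DFX. Red blood cells, fibroblasts, leukocytes and vessels of a xenograft come from the mouse, while the probes are those of human genes. What the signals of the following markers measure is therefore uncertain. The 3 tested red blood cell markers were at 0.33, -0.08 and -0.25 in the controls and -1.07, -1.10 and -1.17 with DFX. Among the 5 fibroblast markers DCN was lower (log2 fold change -1.30, limma unadjusted p = 0.00637, adjusted p = 0.514) and LUM higher (0.87, limma unadjusted p = 0.0435, adjusted p = 0.584), and of the 3 endothelial markers PECAM1 was higher (1.27, limma unadjusted p = 0.000475, adjusted p = 0.504). The median deviations of the 5 fibroblast markers (range -0.51 to 0.21 in the controls, -0.24 to 0.05 with DFX), the 3 leukocyte markers (-0.13 to 0.01, -0.15 to 0.00) and the 3 endothelial markers (-0.12 to 0.15, -0.29 to 0.06) overlapped. The same deviation of the 83 ribosomal protein genes was -0.04, 0.01 and 0.04 in the controls and -0.08, 0.02 and -0.04 with DFX, and the part of these cell types in it was not tested.

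All 6 arrays lay on 1 slide, the controls in its first row and the DFX tumors in its second row, so that row and group cannot be told apart. In slide column 2 (control replicate 1 and DFX replicate 2) the members' median difference was 0.05, and in column 4 (control replicate 3 and DFX replicate 3) it was -0.08. Within these columns RPS3 differed by -0.11 and -0.36, RPL10L by -0.13 and -0.38, RPL3L by -0.41 and -0.10 and RPL14 by 0.32 and 0.28. With slide column as a block in limma, none of these 4 genes, and no other member, had an unadjusted p under 0.05. Only columns 2 and 4 held both groups, so this fit had little power and its lack of calls decides nothing about the 4 genes. Within columns 2 and 4 the 5′ minus 3′ median was -0.03 and -0.16.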

How the data were processed

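The mRNA of 3 control and 3 DFX tumors was measured on 1 array each, and the labels gave the groups. The authors deposited scanner files with linear intensities and a background p-value per spot, not normalized between arrays, and a table of quantile-normalized linear intensities, used as an alternative. The labels name Agilent Feature Extraction 9.5.1.1 and the file headers 10.7.1.1.

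Log2 values of the background-subtracted signal were then quantile-normalized across 58717 non-control spots, 1398 flagged spot values (none of a member) were left out, spots were averaged, and 31807 of 50599 probes were tested, those whose median background p-value was under 0.05 on every array. The test was that of limma 3.58.1 in R 4.3.3 (lmFit, eBayes, prior degrees of freedom 2.04), adjusted over all tested probes. The differences between 5′ and 3′ probes were fitted likewise over 3675 genes. A gene was represented by its brightest tested probe. Calls are at an unadjusted p under 0.05.

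Named are the called members (also by another probe), 5 reference genes, RPL5, RPL11, RPS6, RPSA, the paralogs, hydroxylase substrates and their enzymes with ABCE1, and called genes of the other lists. Other members were named after their values were seen. Some items are counted but not reported by name. The members and lists were chosen with earlier results of these data known. Probe positions are those of the array design (hg19), and start sequences are from RefSeq (GRCh38.p14). The scripts were tested on simulated data. Replicates are separate tumors, and 3 per group limit the precision. Same-numbered tumors were not paired (correlations of deviations 0.0274, 0.0267 and 0.0158). The study's methods name no test for the arrays, so the Kruskal-Wallis H test, given there for in vivo work, was run as an alternative, with other scalings, filters, blocks and single tumors left out.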

Additional observations from a re-analysis of the deposited data

How the results depend on the processing

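Over the alternatives fitted to the arrays, the members' median of -0.02 moved by less than the spread between tumors (0.0439) except with median scaling, which gave -0.12 beside -0.10 over all genes. The counts of members lower and higher (3 and 1) became 0 and 0 with scaling to the 75th percentile, 3 and 0 with median scaling, 6 and 3 with normexp, 8 and 3 with the raw mean signal, 2 and 0 with the authors' table, 9 and 3 without the filter on dim probes, 4 and 2 with probes well above background, 11 and 5 without moderation of the variance, 9 and 2 under array weights, 15 and 9 by the H test of Kruskal and Wallis, 10 and 3 with the intensity trend, and 0 and 0 with slide column as a block. With the replicate block they were 1 and 0, but the numbers did not pair the tumors. Leaving out single tumors gave 0 to 3 lower and 0 higher. With 3 against 3 tumors the H test has a p under 0.05 only where the groups do not overlap, and only by its approximate p-value. Its 15 and 9 therefore repeat the genes without overlap, against 8.41% and 7.03% of all tested genes. Slide column as a block rests on the 2 columns that held both groups. For most settings the share over all tested genes is not given, so a rise in these counts cannot be told from a general rise in calls. The 7 called genes of the other lists became 19 with normexp, 18 with the raw mean signal, 29 by that H test, 13 without the filter, without moderation or using array weights, 16 with the trend, 4 with the replicate block, 0 with slide column, and 2 to 10 without single tumors. EEF1A1 changed sign with its most 3′ probe (0.0038). The causes were not tested. The 5′ minus 3′ median of -0.09 ran from -0.10 to -0.07 over other scalings and backgrounds, bright probes alone and single tumors left out. With 3 tumors per group, the median half-width of a member's 95% interval was 0.245 log2 units.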
